A study of Mus musculus with 2 samples.

Results

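Alternatively activated macrophage genes are the group described here: Arg1, Retnla, Chil3 (listed on older arrays as Chi3l3), Mrc1, Cd163, Clec10a, F13a1 and Folr2. They were taken by name, and all their probes on the array were used, which gave 9 probes for the 8 genes, among 55674 probes and 20658 named genes in all. The group was chosen by the signals, detection marks and ratio of these same arrays, so every difference below is a description and none tests the group. Among 33073 probes clearly brighter than background on both arrays, F13a1 ranked 1st, at 21.6-fold higher signal with tachykinin receptor (TKR) agonists than with TKR antagonists. Its log2 ratio was 4.43 ± 0.31 (software error) and the next was 4.28, a gap smaller than that error. Arg1 was outside this ranking, its antagonist spot being too dim, and its fold was at least 12.6. With the normexp background correction, F13a1 had the 8th largest log2 ratio (2.76) and the Arg1 bound was 3.70-fold. Mrc1 (3.54-fold) and Folr2 (2.36-fold) were also higher. Clec10a (1.49-fold) and Chil3 (1.27-fold) differed by less, and Retnla and Cd163 were not well above background on either array.

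The arrays carried RNA of ovaries from 2-week-old Mus musculus, cut lengthwise and cultured for 3 days. One group was given agonists for TACR1, TACR2 and TACR3, the other was given antagonists for them, all at 1 μM, with a single array for each. The sources join the ligands of a group both with "and" and with "or", and they are read here as given together. The paper gives the cut into symmetrical pieces as a way to limit error from different ovaries. Whether the arrays held matching pieces of the same ovaries is not stated. The strain and the number of ovaries behind each RNA are not given in the sources used here, and neither group was left without ligand. Neither group was replicated, so the spread between ovaries is unknown and no statistical test was made.

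Macrophages take up different programs depending on the signals around them. In the alternative program, interleukin 4 and interleukin 13 act through a shared receptor and the transcription factor STAT6, and the macrophage turns to tissue repair, uptake of debris and arginine breakdown by arginase. In the classical program, interferon and bacterial products raise inducible nitric oxide synthase and inflammatory cytokines, and arginine is used for nitric oxide instead. The ovary holds resident macrophages in the stroma and around follicles, where they clear the cells of follicles that degenerate. The 8 genes have distinct roles in this: Arg1 is the arginase, Retnla and Chil3 encode secreted proteins, Mrc1, Clec10a and Cd163 are uptake receptors, F13a1 encodes the A subunit of coagulation factor XIII, a transglutaminase that crosslinks fibrin, and Folr2 is a folate receptor found on resident macrophages.

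The sequences upstream of the start sites are shown here because STAT6 is the factor through which the alternative program is known to act. Of the 8 genes, 6 matched an entry in the RefSeq promoter table (GRCm38.p6), namely Retnla, Chil3, Mrc1, Cd163, F13a1 and Folr2. Each window holds the 250 bases before the start site. The letters searched, on both strands, were TTC and GAA with NNNN between them (the wider spacing) or with NNN between them (the closer spacing) for STAT6, TGANTCA for AP-1, GAGGAA for PU.1 and TTGCNNAA for C/EBP; a PU.1 match can overlap a STAT6 match, since both can end in GAA. The windows printed are those of Retnla (chr16:48842359-48842608, plus strand), Chil3 (chr3:106167565-106167814, minus strand), Mrc1 (chr2:14229164-14229413, plus strand) and the first of the start sites of F13a1 (chr13:37050245-37050494, minus strand). They are given 5′ to 3′ with every match in capitals.
Retnla: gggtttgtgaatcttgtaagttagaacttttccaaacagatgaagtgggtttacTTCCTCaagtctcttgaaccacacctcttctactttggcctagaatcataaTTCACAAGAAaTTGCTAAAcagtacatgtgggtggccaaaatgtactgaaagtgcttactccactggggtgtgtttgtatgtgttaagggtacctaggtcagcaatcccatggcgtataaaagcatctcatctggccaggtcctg
Chil3: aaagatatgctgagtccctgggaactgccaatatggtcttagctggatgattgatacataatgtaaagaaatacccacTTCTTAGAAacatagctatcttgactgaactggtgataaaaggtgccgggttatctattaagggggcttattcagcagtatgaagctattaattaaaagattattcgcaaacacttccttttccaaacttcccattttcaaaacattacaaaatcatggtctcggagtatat
Mrc1: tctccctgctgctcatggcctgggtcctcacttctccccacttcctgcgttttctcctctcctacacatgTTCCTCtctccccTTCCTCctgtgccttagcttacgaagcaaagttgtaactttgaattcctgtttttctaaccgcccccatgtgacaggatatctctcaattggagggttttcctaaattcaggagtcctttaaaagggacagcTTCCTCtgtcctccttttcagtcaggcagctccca
F13a1: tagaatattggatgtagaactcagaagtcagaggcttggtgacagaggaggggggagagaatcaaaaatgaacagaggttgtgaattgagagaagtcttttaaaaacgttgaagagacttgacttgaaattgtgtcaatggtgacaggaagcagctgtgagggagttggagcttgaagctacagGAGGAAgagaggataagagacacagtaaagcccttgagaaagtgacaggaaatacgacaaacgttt
Retnla held 1 match to the wider-spaced STAT6 letters, 1 to PU.1 and 1 to C/EBP. Chil3 held 1 match to the closer-spaced STAT6 letters. Mrc1 held 3 PU.1 matches and F13a1 held 1, and neither had STAT6 letters in this window. The other start site of F13a1, the first of Folr2 and that of Cd163 held none of the 5 motifs, and the other start site of Folr2 held 1 AP-1 match. Among all 32851 windows of this length, 5.85% held the STAT6 letters at the wider spacing, 7.02% at the closer spacing, 6.75% the AP-1 letters, 23.3% the PU.1 letters and 9.56% the C/EBP letters. STAT6 letters were found in the windows of Retnla and Chil3, while Arg1 and Clec10a had no window to search. The part of STAT6 in the members' ratios was not tested. A match is a run of letters and not a measured binding site.

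Values are processed signals of single spots, in the signal units of the image software, each with the software's own error of the spot. A log2 ratio is the difference of the log2 signals, agonists minus antagonists, once each array had been divided by its own 75th percentile (672 signal units on the agonist array, 569 on the antagonist array). A spot well above background is one that the software marks as clearly brighter than its surroundings. Of all spots, 65.4% had this mark with the agonists and 61.6% with the antagonists, and the lowest signals that had it were 18.1 and 19.9. The median log2 ratio of the named genes well above background on both arrays was -0.10.

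Arg1, the arginase that splits arginine into ornithine and urea, had a signal of 295.7 ± 29.9 (software error, 1 spot) with the agonists and 11.5 ± 4.80 with the antagonists. The antagonist spot was not well above background, although the software still called it positive and significant against its surroundings, and its raw brightness was 53.0 on a local background of 44.0. The fold therefore has only a lower bound, taken against the lowest signal well above background on the antagonist array. On this basis the Arg1 fold was at least 12.6, the 2nd largest bound among the 2874 probes well above background on the agonist array only. Across all named genes, 4.09% were in that position.

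F13a1 was represented by a bright and a dim probe for the same transcript, NM_028784. The bright probe read 646.8 ± 64.8 with the agonists and 25.4 ± 4.88 with the antagonists, and both spots were well above background. Its log2 ratio was 4.43 ± 0.31 (software error), the largest among 33073 probes well above background on both arrays, where the next was 4.28, a gap smaller than that error. The dim probe read 5.34 ± 3.93 and 4.12 ± 4.13 and was not well above background on either array, so it gave no fold. As a reference, brightness was the mean scaled log2 signal of the arrays, which the antagonist spot of F13a1 lowers. Of 4076 genes with several probes and at least 1 as bright by this mean, 499 (12.2%) had another probe dark on both arrays. Those probes could be for another transcript of the gene, unlike the probes of F13a1. The F13a1 result rests on 1 spot per array.

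**Figure D1:**
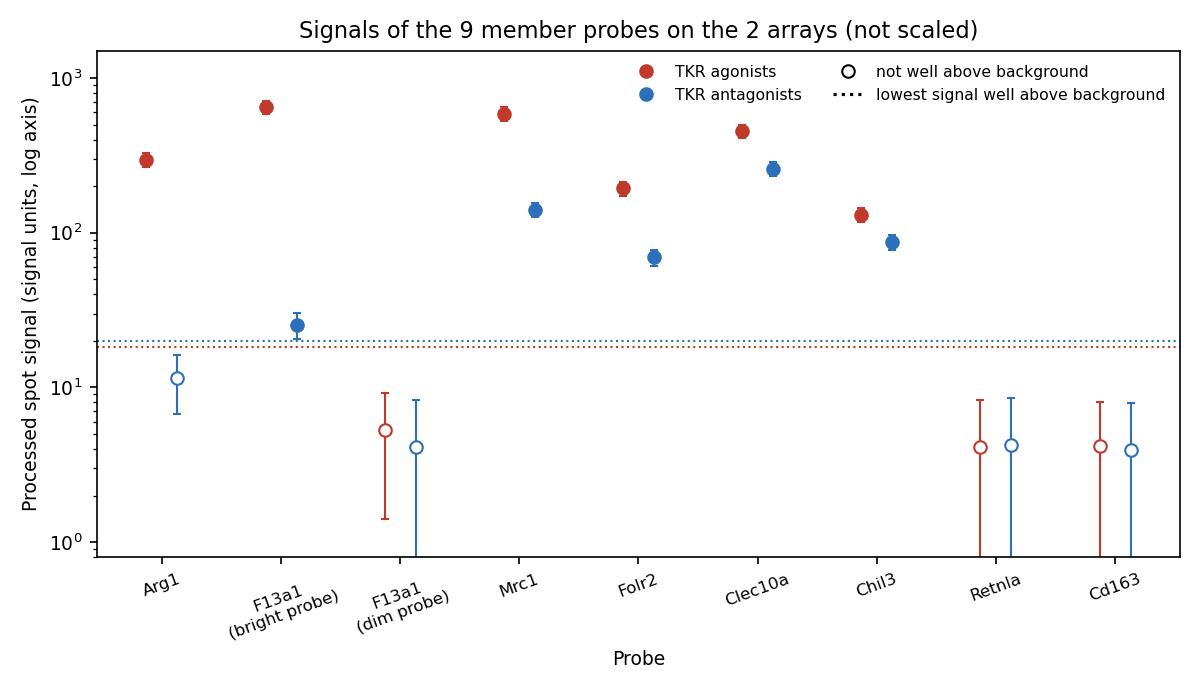
Processed spot signal (log axis, signal units, not scaled between arrays) of each of the 9 probes with TKR agonists (red) and TKR antagonists (blue); bars are the software's error of the spot, cut off at the lower edge where they reach it, open circles are spots not well above background and dotted lines the lowest signals well above background (18.1 and 19.9). Arg1 and the bright F13a1 probe show the widest gaps, and the dim F13a1 probe, Retnla and Cd163 lie under the dotted lines on both arrays.

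Mrc1, the mannose receptor, read 588.5 ± 59.0 under agonists against 140.7 ± 14.7 under antagonists, a log2 ratio of 1.82 ± 0.21. Among the 33073 measured probes, 186 (0.562%) were at least as high. Clec10a, a lectin that binds galactose-type sugars, read 454.8 ± 45.7 and 258.8 ± 26.2, a log2 ratio of 0.57 ± 0.21, and 7.13% of probes were at least as high. Cd163, the scavenger receptor for hemoglobin bound to haptoglobin, read 4.18 ± 3.82 and 3.96 ± 3.97. Its errors are about as large as its signals, so no ratio is given for it, although the agonist spot was called positive and significant. The 3 uptake receptors thus ran from well separated spots for Mrc1 to spots not well above background for Cd163.

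Folr2, the folate receptor beta, read 193.6 ± 19.7 under agonists against 69.3 ± 8.06 under antagonists, a log2 ratio of 1.24 ± 0.22. Of the measured probes, 1.63% were at least as high. The secreted products of alternative activation were Chil3 and Retnla, of which Chil3 alone had a ratio. Chil3, a chitinase-like protein also known as Ym1, read 130.3 ± 13.6 and 87.0 ± 9.72, a log2 ratio of 0.34 ± 0.22, and 13.1% of probes were at least as high. Retnla, a resistin-like protein and one of the most used marks of interleukin 4 action in mice, read 4.11 ± 4.12 and 4.25 ± 4.27 and was not above background on either array.

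By size of the log2 ratio, the members measured on both arrays ranked F13a1, Mrc1, Folr2, Clec10a and Chil3. The step from F13a1 to Mrc1 was 2.61, against a software error of 0.38 for that difference. The steps from Mrc1 to Folr2 (0.58 ± 0.31) and from Folr2 to Clec10a (0.67 ± 0.30) were 1.91 and 2.20 times their errors, and that from Clec10a to Chil3 (0.23 ± 0.30) was within its error. The array prints 399 probes at 10 spots each, which measures the error of a spot directly. For the 56 of them in the signal range of these members (106.5 to 343.1 as geometric mean of the arrays) and well above background at all spots, the SD between spots of the log2 ratio had a median of 0.11 and a maximum of 0.25. With percentile scaling, the log2 ratios of F13a1, Mrc1, Folr2, Clec10a and Chil3 were numerically above that maximum. Chil3 was closest to it, at 0.34 ± 0.22 (software error), and its ratio fell to 0.15 with normexp. An SD is not a limit for a ratio, and the members were grouped for their difference. Nothing is therefore read from this comparison, which covers spots and not ovaries.

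**Figure D2:**
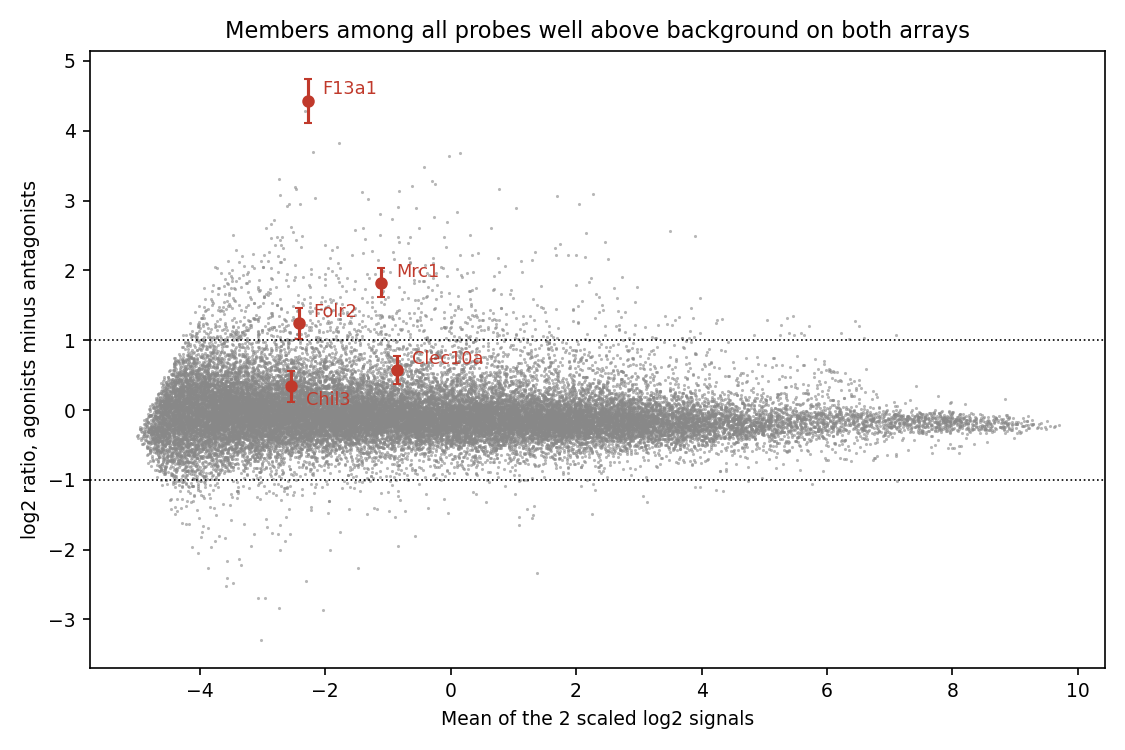
Log2 ratio (agonists minus antagonists) against the mean of the scaled log2 signals for the 33073 probes measured on both arrays (grey points); red points are the members measured on both arrays, with bars for the software's error, and dotted lines mark 2-fold differences. F13a1 (4.43) lies above every other probe, Mrc1 (1.82) and Folr2 (1.24) lie above the upper line, and Clec10a (0.57) and Chil3 (0.34) lie below it.

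Counting bounds, 4 of the 8 genes (Arg1, F13a1, Mrc1 and Folr2) reached a 2-fold higher level under agonists and 0 a 2-fold lower one. With normexp the count was 3, Folr2 (0.70) no longer reaching the limit, and the median log2 ratio of the members was 0.70. The same held for 4.51% (higher) and 0.854% (lower) of the 16278 named genes that were measured on 1 array or both. Without bounds the limit was passed by 2.69% of measured probes upward, and a limit of 1.5-fold by 9.26% of named genes. The members nearest to the 2-fold limit were Folr2 above it (2.36-fold) and Clec10a below it (1.49-fold). Among the 6739 probes with a mean signal within that of the members, 3.59% were at least 2-fold higher. The 5 genes with a ratio had a median log2 ratio of 1.24, and relative to the median of all named genes F13a1 stood 4.53, Mrc1 1.92, Folr2 1.34, Clec10a 0.67 and Chil3 0.44 higher. Both Retnla and Cd163 fell among the 21.2% of named genes not well above background on either array. Because the genes were grouped for their difference, nothing is read from these shares.

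The macrophage lineage itself was measured with 18 genes. Of these, 14 were well above background on both arrays, 6 of them at least 2-fold higher and 0 lower, against 4.01% and 0.577% of the 15258 named genes well above background on both arrays. The number at least 2-fold higher was 4 with normexp and 9 without scaling. The lineage median was 0.83. Cx3cr1, the fractalkine receptor, was highest at 2.61, with signals of 1176 and 162.7, while its other probe gave no ratio. Aif1, a macrophage calcium-binding protein, followed at 1.84. Csf1r, the receptor for the growth factor that macrophages depend on, had 0.15, with 0.04 and -0.09 at its other probes, and the integrin Itgam had -0.31, with -0.39 and 0.64 at its other probes. The immunoglobulin receptor Fcgr1 (at least 1.52-fold) and Ptprc (at least 1.81-fold) were measured on the agonist array only, Spi1 on neither, and Cd68 was not matched to a probe. The summed signal of the list, in units of each array's 75th percentile, came to 45.1 under agonists against 33.5 under antagonists. F13a1 lay 3.60 and Mrc1 0.995 above the lineage median, and Clec10a and Chil3 lay below it, at -0.26 and -0.49. In RNA from whole tissue, fewer cells of a type and less RNA per cell cannot be told apart, and the part of macrophage number in the members' ratios was not tested.

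Genes of resident tissue macrophages were mostly higher with the agonists. Of 17 genes, 15 were well above background on both arrays and 6 of these were at least 2-fold higher, with a median log2 ratio of 0.73. The number at least 2-fold higher was 5 with normexp and 7 without scaling. Cbr2, a carbonyl reductase, read 770.5 and 80.5, a log2 ratio of 3.02, while its other probe gave 1.46. Marco, a scavenger receptor for particles and bacteria, read 1927 and 227.3, a log2 ratio of 2.84. Lyve1, a hyaluronan receptor shared by resident macrophages and lymphatic vessels, read 137.1 and 32.3, a log2 ratio of 1.84. Its lowest log2 ratio over the ways of processing was 0.79. At the low end were the iron exporter Slc40a1 (0.07) and Gas6 (-0.43), a ligand of the receptors that take up dying cells. Vsig4 (at least 1.06-fold) and Cd209g (at least 1.23-fold) were measured on the agonist array only.

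**Figure D3:**
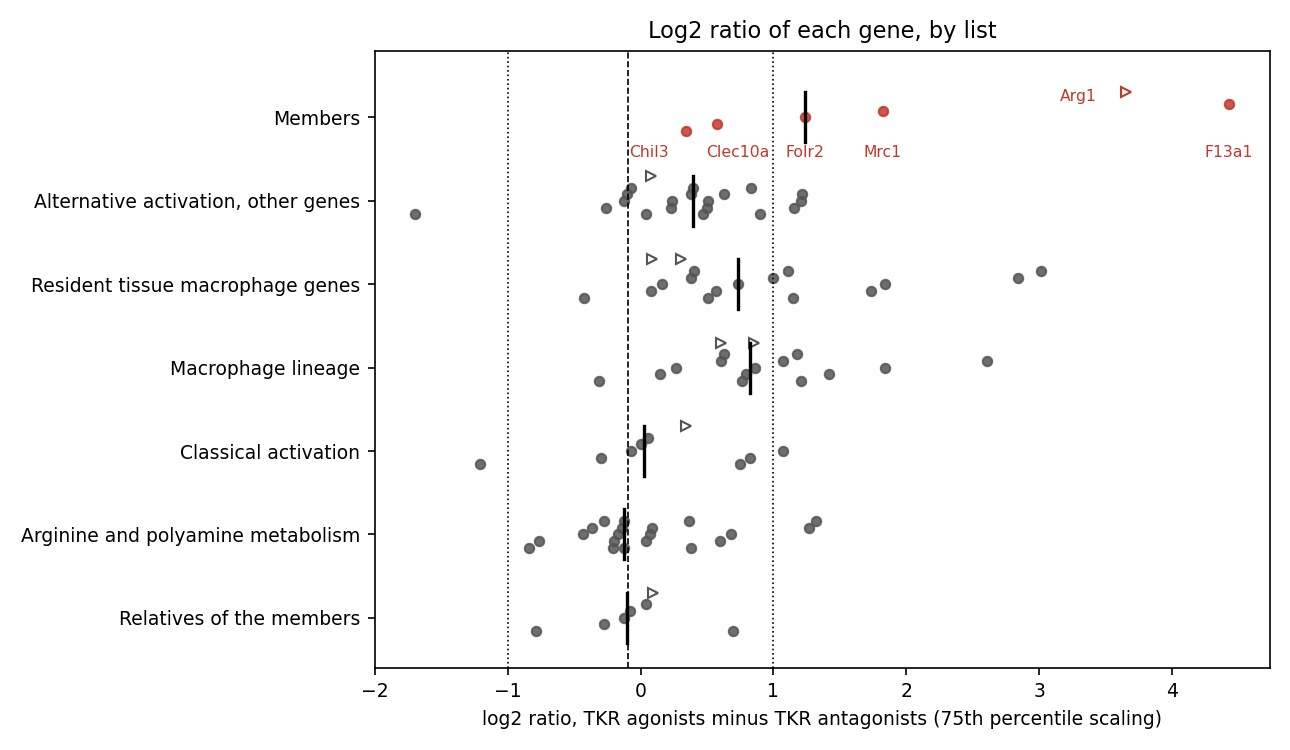
Log2 ratio (agonists minus antagonists, 75th percentile scaling) of each gene, 1 point per gene well above background on both arrays, for the members and 6 related lists; open triangles are lower bounds of genes well above background on the agonist array only, black bars list medians, the dashed line the median of all named genes (-0.10) and dotted lines 2-fold differences. The medians of the members (1.24), macrophage lineage (0.83) and resident macrophage genes (0.73) lie to the right, and those of classical activation (0.03) and of arginine and polyamine metabolism (-0.13) lie near the dashed line. With normexp the medians of the members, macrophage lineage and resident macrophage genes were 0.70, 0.70 and 0.71. The members were grouped for their difference.

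Other genes tied to alternative activation were read beside the members. The medians are not compared, since the members were grouped for their difference. Of 30 genes, 19 were well above background on both arrays, 3 of them at least 2-fold higher and 1 lower, with a median of 0.40. Fibronectin (Fn1) read 11891 and 4333, a log2 ratio of 1.21, and the scavenger receptor Msr1 had 1.21, with 0.56 at its other probe. Ccl17, a chemokine that interleukin 4 raises in macrophages, went the other way, with 25.6 and 70.2 and a log2 ratio of -1.70. Over the ways of processing, the Ccl17 value lay between -1.75 and -0.64, the latter short of the 2-fold limit. Socs1, a feedback inhibitor of cytokine signaling, had -0.26. The receptor chain Il4ra had 0.51, but -0.29 at its other probe, and Stat6 had 0.38, with 0.68 and 0.63 at its other probes. The ligands Il4 and Il13, singled out after their values were seen, were not well above background on either array, and Il10 was so on the agonist array only, at least 1.06-fold higher. Chil4, the close relative of Chil3, was not well above background on either array.

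Classical activation was measured with 18 genes, of which 8 were well above background on both arrays, 1 at least 2-fold higher and 1 lower, with a median of 0.03 whose sign changed with the scaling (-0.03 to 0.29). Cd38 (1.07), an enzyme that breaks down NAD, and the transcription factor Irf5 (0.83) were highest. The interferon-induced chemokine Cxcl10 was lowest, with 336.3 and 657 signal units and a log2 ratio of -1.21. Nos2, the inducible nitric oxide synthase that competes with arginase for arginine, read 3205 and 3335, a log2 ratio of -0.30. Cd86 was well above background on the agonist array only, at least 1.26-fold higher. Of the rest, 8 genes were not well above background on either array and 1, Il12b, was not matched to a probe.

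Enzymes around Arg1 had a median close to that of all named genes. Of 23 genes of arginine and polyamine metabolism, 20 were well above background on both arrays, 2 at least 2-fold higher and 0 lower, with a median of -0.13 whose sign changed with the scaling (-0.18 to 0.13). Arg2, the mitochondrial arginase, read 329.1 and 304.2, a log2 ratio of -0.13 whose sign changed with the scaling (-0.18 to 0.13). Odc1, which makes putrescine from the ornithine that arginase releases, had -0.76, with -0.79 and -0.51 at its other probes, and the arginine transporter Slc7a1 had -0.84. The endothelial nitric oxide synthase Nos3 (1.32, and 1.45 at its other probe) and Sat1 (1.27), which starts polyamine breakdown, were highest. Otc and Cps1, the urea cycle enzymes of liver, were not well above background on either array.

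Close relatives share sequence with the members and were read beside them. Of 14 relatives, 6 were well above background on both arrays, 0 of them at least 2-fold higher or lower. Folr1, the folate receptor alpha, had 0.69 at one probe and 0.01 at the other, and Izumo1r, the oocyte receptor for sperm that was once named Folr4, had -0.08, a sign that changed with the scaling. Mrc2 had -0.27. Mgl2, the neighbor and close homolog of Clec10a, read 29102 and 23915, a log2 ratio of 0.04 whose sign also changed with the scaling (-0.01 to 0.30). Resistin (Retn) had -0.79 and -0.56 at its probes, and Retnlg was not well above background on either array, as were 6 more relatives. Chil1 was well above background on the agonist array only, at least 1.07-fold higher.

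Markers of other cells that can carry these transcripts were read beside them. Platelets carry F13a1, and the platelet genes Ppbp, Itga2b, Gp1ba and Gp9 were not well above background on either array, while Gp6 had -0.84. Liver cells carry Arg1, and of 6 liver genes albumin (Alb) was not well above background on either array. Serpina1a had 1.86 (154.1 and 36.0 signal units), with 0.77 at its lowest over the ways of processing and no ratio at its other probe. Apoa1 read 296.3 against 501.3, and the 5 measured genes had a median of -0.04 (sums 6.86 and 7.17). Of 10 neutrophil genes, 2 were measured on both arrays (Camp 0.88, Elane 0.05), 4 on the agonist array only and 4 on neither (sums 7.35 and 6.88). Dendritic cell genes summed to 0.656 and 0.393, with 3 of 7 measured on both arrays. Itgax, which macrophages also use, had 1.91 (234.1 and 52.8 signal units), and the sums differ mainly through this gene. Ccr7 had 0.27 and Zbtb46 -0.08, with -0.22 at the other Zbtb46 probe. The signs of Ccr7 and Zbtb46 changed with the processing. Eosinophil genes (2 of 7 measured on both arrays, sums 0.273 and 0.248) and mast cell genes (1 of 5, sums 0.319 and 0.304) had medians of -0.04 and -0.05. Fabp4, used by adipocytes and by macrophages, had 3.82, and Plin1, which coats fat droplets, had 0.59 (73.2 and 41.3 signal units). Cfd was measured on the antagonist array only, at least 1.43-fold higher there, and Adipoq and Lep were not well above background on either array. The adipocyte sums were 1.24 and 0.221. Fabp4 read 738.9 and 44.2 signal units, so these sums differ mainly through this gene, which macrophages share. The part of these cells in the members' ratios was not tested.

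Markers of the other ovarian compartments also differed between the arrays. All 7 surface epithelium genes with a probe were higher with the agonists (median 1.03, sums 37.3 and 17.5), as were 5 of 5 smooth muscle genes measured on both arrays (0.81, 38.4 and 23.3) and 5 of 6 endothelial genes (0.68, 61.5 and 54.5). The remaining endothelial gene measured on both arrays, Kdr, had -0.27, with 0.38 at its other probe. Des of smooth muscle (at least 2.63-fold) and Tek of endothelium (at least 4.10-fold) were measured on the agonist array only. Stroma had a median of 0.38 (sums 403.3 and 337), oocyte genes 0.16 (209.9 and 219.2), theca genes -0.10 (85.1 and 84.1) and granulosa genes -0.14 (139.7 and 150.8). The signs of the theca, granulosa, liver, eosinophil and mast cell medians changed with the scaling. These markers checked the labelled tissue, since the oocyte, granulosa and stroma genes were well above background on both arrays. A different make-up of the pieces and a response to the ligands cannot be told apart.

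**Figure D4:**
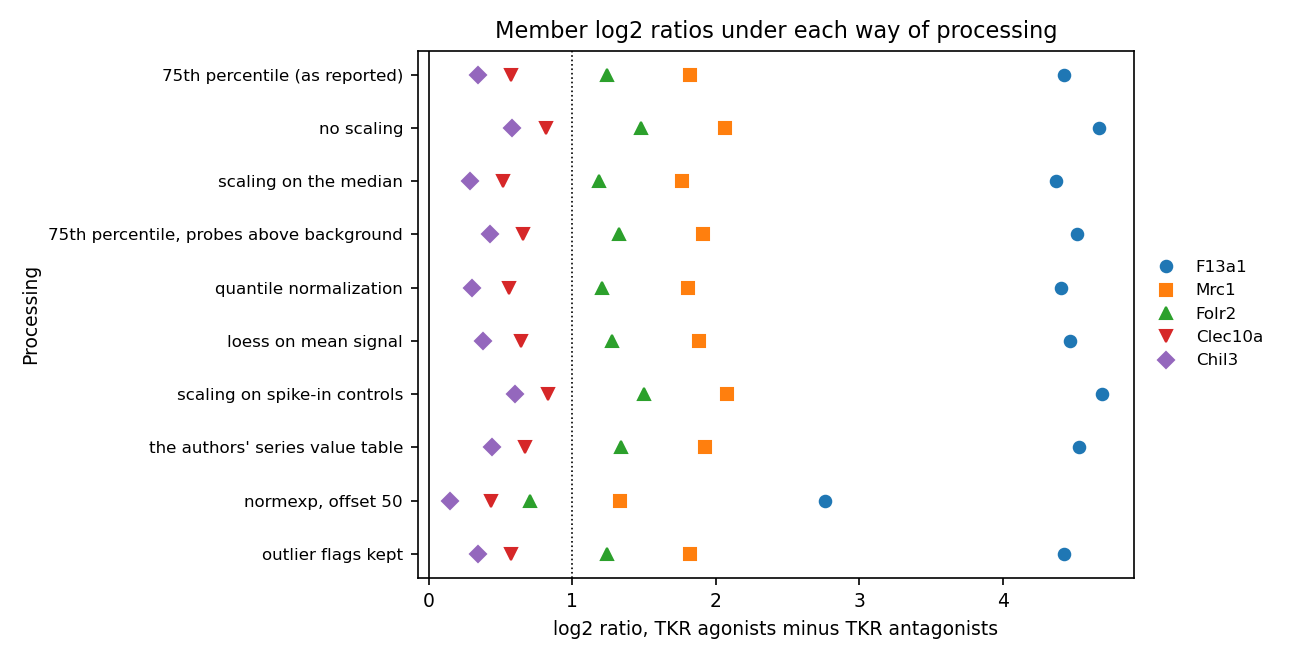
Log2 ratio of the 5 members measured on both arrays under 10 ways of processing, 1 symbol per gene; the dotted line marks a 2-fold difference. All values are above 0, the order of the genes is F13a1, Mrc1, Folr2, Clec10a and Chil3 in each row, and the normexp background correction gives the lowest values (F13a1 2.76, Folr2 0.70).

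Across these ways of processing, the log2 ratio of F13a1 lay between 2.76 and 4.69, that of Mrc1 between 1.33 and 2.08, that of Folr2 between 0.70 and 1.498, that of Clec10a between 0.43 and 0.83 and that of Chil3 between 0.15 and 0.60. Among the probes measured on both arrays, F13a1 had the largest log2 ratio in 9 of them and the 8th largest with normexp. The lower bound of the Arg1 fold lay between 3.70 and 15.0.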

How the data were processed

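Total RNA of cultured ovary pieces was labelled with Cy3 and hybridized to 2 single-color Agilent mouse arrays, 1 per group. The authors deposited spot intensities from Feature Extraction 10.10.1.1, corrected for background by the software and not scaled between arrays; the median spot and local background intensities and the software's 0 or 1 marks (deposited as other values) were also used. Their deposited series table equals the processed intensity times 1.99 (agonists) or 2.19 (antagonists). Arrays have no read depth; their number limits the precision.

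Control spots and outlier spots were left out. Log2 signals were reduced by each array's 75th percentile, and repeated spots averaged per probe. The detection mark of a probe was that of more than 50% of its spots. Symbols came from RefSeq transcripts (GRCm38.p6; 27230 of 55674 probes had 1 symbol), and the brightest probe stood for its gene. For a probe detected on 1 array, the bound was set against the dim value or, if higher, that array's lowest signal well above background. The members and lists were chosen with earlier results of these data known. The result of 1 marker gene, and the list sum that holds it, are not reported here. Named genes were all members, the 2 highest and 2 lowest of each related list, genes with a bound, and fixed counterparts of the members. Python 3.11.15, numpy 2.4.6, pandas 2.3.3, R 4.3.3 and limma 3.58.1 were used. Simulated data were used to check the code. Alternatives were other scalings (none, median, detected probes, quantile, loess with span 0.3, spike-ins), the series table, normexp (offset 50), outliers kept, the median over probes, a 1.5-fold limit and no filter on dim probes.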

Additional observations from a re-analysis of the deposited data

How the results depend on the processing

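No paired analysis was possible because neither group was replicated and nothing was tested. The count of 4 members at least 2-fold higher was 3 with normexp, where Folr2 was left out, and 4, with the same 4 genes, under each other alternative run, a 1.5-fold limit included. The median log2 ratio of the members measured on both arrays, 1.24, was 1.48 without scaling, 1.498 with scaling on spike-in controls, 0.70 with normexp and 0.91 over all 8 genes with no filter on dim probes. The lower bound of the Arg1 fold, 12.6, was 14.9 without scaling, 15.0 with spike-in controls and 3.70 with normexp, which adds 50 units to every signal. Without scaling the ratios rise by 0.24, the difference of the percentiles on the log2 scale, and the median of all named genes lay between -0.15 and 0.16. Of the 45 values of single members, 34 moved by less than the software's error, 11 by more and 0 changed sign. With the weaker mark (positive and significant), 7 members in place of 6 were above background on at least 1 array, Cd163 being added. Signal over background limits Arg1 with the antagonists, and Retnla, Cd163 and the dim F13a1 probe on both arrays.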
